A study of Mus musculus with 95 samples.

Results

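Interleukins and the chains of their receptors were followed in mouse lung through 55 probe sets of an expression array. These are all probe sets that the platform annotation pairs with a single gene whose symbol is Il followed by a digit, out of 12487 probe sets in all. They stand for 45 genes, of 8252 named by such probe sets, and 7 of the 45 have several probe sets. Of the 55, 53 were tested and 2 are control probe sets of the array (1 for Il4 and 1 for Il10), for which levels alone are given. One more probe set with such a symbol was left out because it is paired with 2 genes.

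Total RNA from homogenised lung was hybridised on 95 arrays, 1 per labelled mouse, in 19 groups of 2 to 10. The mice were labelled female and 8 weeks old, and were either C57BL/6 or CD40L-KO. CD40L-KO mice lack CD40 ligand, the T cell surface protein that engages CD40 on B cells, macrophages and dendritic cells. Exposed mice (60) shared a cage with a seeder mouse carrying the lung fungus Pneumocystis murina, and unexposed mice (35) did not. C57BL/6 mice were taken on day 7 (8 exposed and 4 unexposed), day 14 (8 and 6), day 21 (6 and 5), day 32 (3 and 2), day 34 (10 and 5) and day 41 (10 and 5), and 3 exposed mice were taken on day 75. CD40L-KO mice were taken on day 32 (3 exposed and 3 unexposed), day 35 (4 exposed), day 39 (2 exposed) and day 75 (3 exposed), and 5 unexposed CD40L-KO mice carry the label day 14. Those 5 were set against the exposed mice of day 35, as the fourth experiment is described. In the first 3 experiments the exposed and the unexposed mice sat in different cages, and an effect of the cage cannot be told apart from one of exposure. Days 39 and 75 have no unexposed group.

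Interleukins are secreted proteins by which leukocytes and tissue cells signal to each other through receptors made of shared and private chains. The IL-1 family (IL-1 and IL-18) acts through MyD88 and NF-kB and is held in check by soluble inhibitors, among them the IL-1 receptor antagonist, the decoy receptor IL-1R2 and the IL-18 binding protein. The common gamma chain, IL-6, IL-10 and IL-12 families act through JAK kinases and STAT factors. In lung defence IL-12 and IL-18 drive interferon-gamma responses, IL-4, IL-5 and IL-13 mark type 2 responses, and IL-17A is tied to neutrophil responses.

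RefSeq start-site windows (250 bases before to 50 after the start, build GRCm38.p6) were found for 36 of the 45 genes, 48 windows in all. Those of Il18bp, which was called, and of the ligands Il6 and Il1b, which stood high in the same exposed C57BL/6 mice of day 32, are printed, each 5′ to 3′ on the gene's strand: Il18bp at chr7:102018183-102018482 (minus strand), Il6 at chr5:30012864-30013163 (plus strand) and Il1b at chr2:129371090-129371389 (minus strand). Capitals mark matches on either strand to 5 motifs: the GAS motif (TTC, any 3 bases, GAA), the STAT6 motif (TTC, any 4 bases, GAA), the ISRE core (GAAA, any 2 bases, GAAA), the NF-kB motif (GGG, any 5 bases, CC) and the AP-1 motif (TGA, any 1 base, TCA).
Il18bp: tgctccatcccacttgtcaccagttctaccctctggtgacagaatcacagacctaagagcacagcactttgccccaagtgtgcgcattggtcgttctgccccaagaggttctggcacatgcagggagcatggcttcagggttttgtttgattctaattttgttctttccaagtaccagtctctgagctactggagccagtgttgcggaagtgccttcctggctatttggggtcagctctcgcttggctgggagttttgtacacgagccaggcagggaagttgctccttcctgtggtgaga
Il6: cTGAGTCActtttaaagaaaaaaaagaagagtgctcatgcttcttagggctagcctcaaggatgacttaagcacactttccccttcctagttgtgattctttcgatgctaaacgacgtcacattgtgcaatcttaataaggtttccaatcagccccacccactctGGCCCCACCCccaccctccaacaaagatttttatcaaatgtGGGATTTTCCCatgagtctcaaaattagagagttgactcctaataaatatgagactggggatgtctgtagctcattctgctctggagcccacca
Il1b: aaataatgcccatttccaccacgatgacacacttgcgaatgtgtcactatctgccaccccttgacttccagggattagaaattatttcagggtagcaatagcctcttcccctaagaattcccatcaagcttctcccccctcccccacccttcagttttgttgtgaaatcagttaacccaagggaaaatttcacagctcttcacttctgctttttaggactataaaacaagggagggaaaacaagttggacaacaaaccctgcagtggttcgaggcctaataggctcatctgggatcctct
The Il6 window held the AP-1 letters TGAGTCA, and NF-kB letters at GGCCCCACCC and, overlapping on the 2 strands, at GGGATTTTCC and GGATTTTCCC. The Il18bp and Il1b windows had 0 matches to the 5 motifs. Il1rn, whose difference on that day was close to those of Il18bp and Il6, has 3 windows, not printed. NF-kB letters were in all 3, STAT6 letters in 2 and AP-1 letters in 1. The 2 windows with STAT6 letters overlap and hold the same stretch, TTCCCAGGAA. Windows of 1 gene can therefore count the same letters more than once in the counts below. Among all 32851 windows, 50.8% held the NF-kB letters, 8.3% the GAS letters, 7.81% the AP-1 letters, 6.95% the STAT6 letters and 3.44% the ISRE core. Among the 48 windows of interleukin genes, 25 held the NF-kB letters, 7 the GAS letters, 10 the AP-1 letters, 13 the STAT6 letters and 2 the ISRE core. A match is a run of letters and no evidence of binding.

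Many interleukin transcripts gave almost no signal. A probe set was counted as near the floor when its mean deposited intensity was under 20 in every one of the 19 groups, on a scale where the trimmed mean of an array is close to 100.05. By this rule 24 of the 55 probe sets were near the floor, 19 were at 20 or more in every group and 12 lay between. Among those tested, 22 of 53 were near the floor (41.51%), beside 25.71% of all tested probe sets. Ligands made up most of the dim end: 8 of the 9 common gamma chain ligand probe sets (Il2, Il7, Il15 and all 5 for Il4) were near the floor, Il9 being the exception.

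Within the type 2 and common beta chain group, 4 of 7 were near the floor: Il5, Il13, Il5ra, the IL-5 receptor chain, and Il13ra2, a decoy receptor for IL-13. In the IL-12 family 4 of 6 were near the floor (Il12a, Il12rb2 and both Il12rb1 probe sets), in the IL-17 family 2 of 4 (Il17a and Il17d) and in the IL-10 family 2 of 4 (both for Il10). The IL-6 family had Il11 there, the IL-1 receptors Il1rap, and the common gamma chain receptors Il2ra and Il9r. Receptors and inhibitors made up most of the probe sets at 20 or more in every group. Il10rb, a chain shared by IL-10 and related cytokines, ranged from 250.3 to 570.4 over the 95 mice, and Il18r1, the IL-18 binding receptor chain, from 106.7 to 202.3. Those at 20 or more in every group were Il1b, Il18, Il18bp, Il1rn, Il1r1, Il18r1, Il10rb, Il27ra, both Il17ra, Il6ra, both Il6st, Il15ra, Il7r, 1 of the Il4ra probe sets (102021_at), Il13ra1, Il3ra and Il16.

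**Figure D1:**
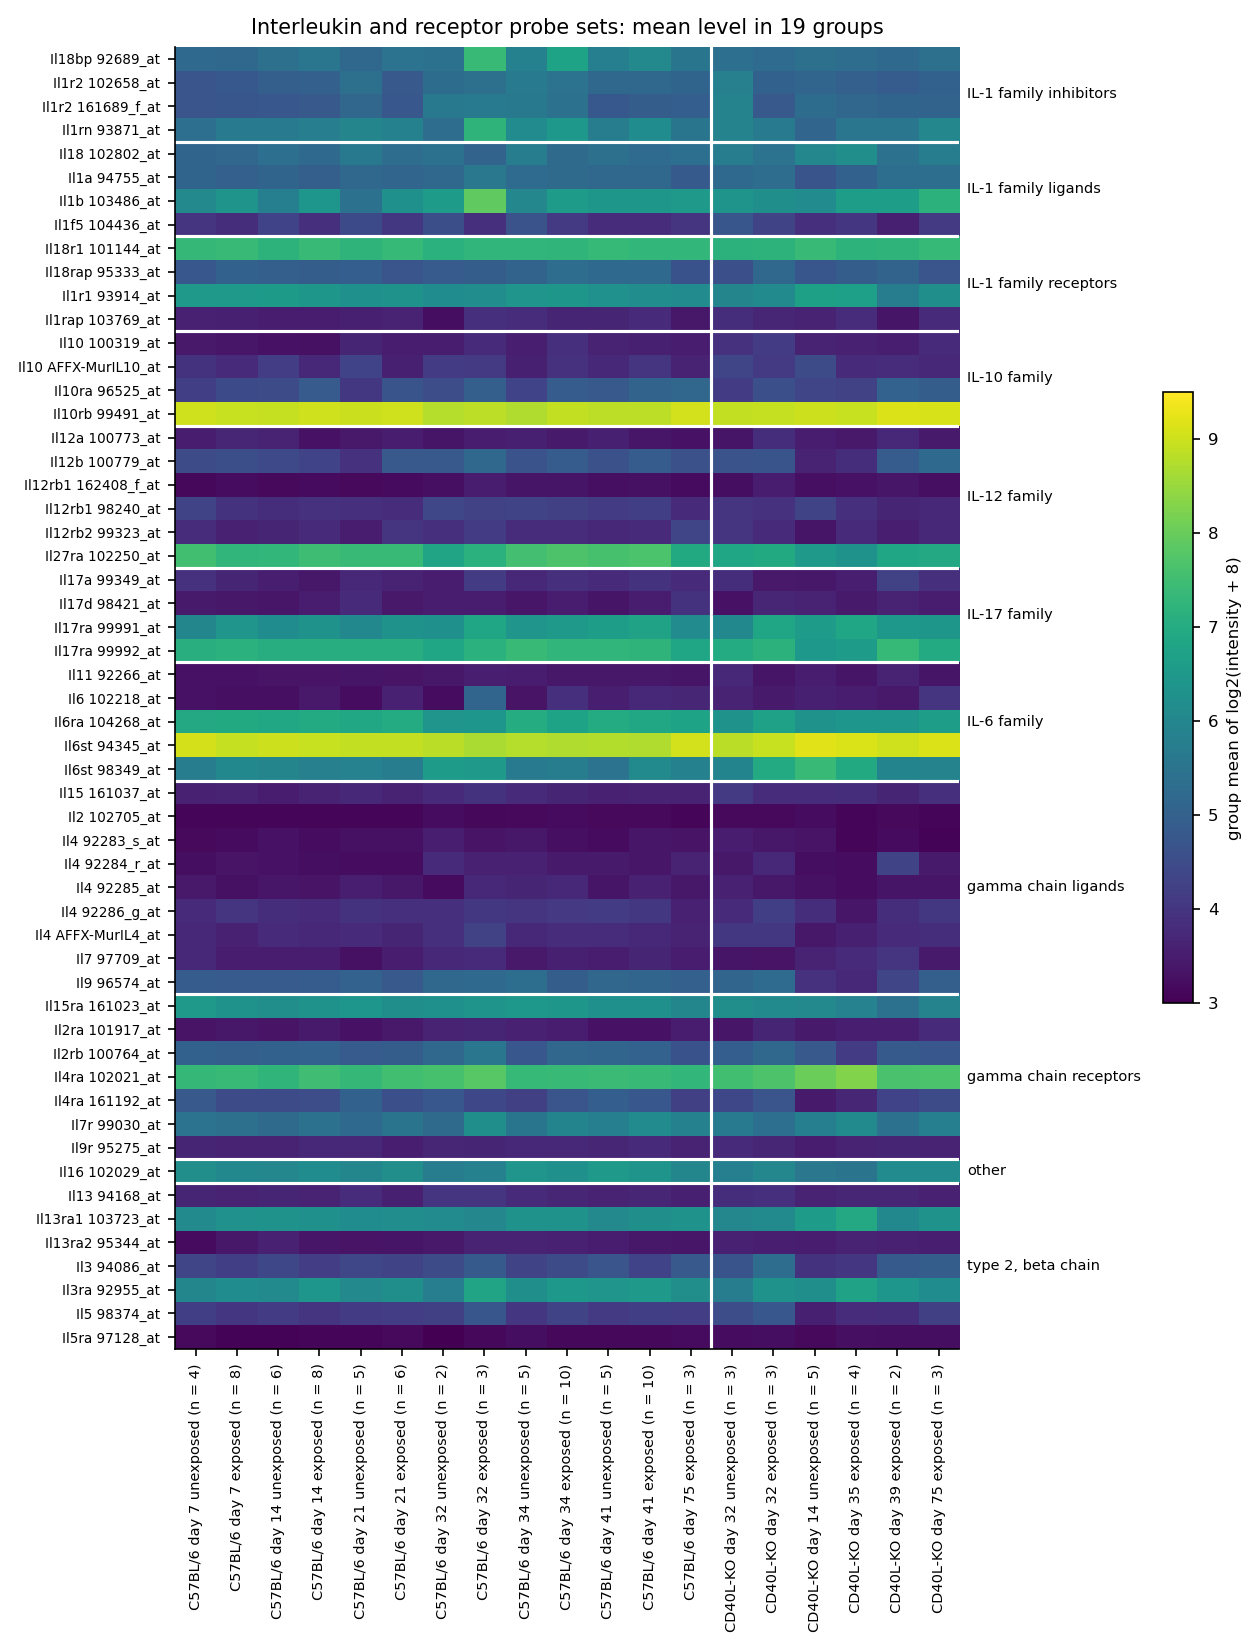
Mean level of all 55 interleukin and receptor probe sets (rows, grouped by role) in the 19 groups of mice (columns), as the group mean of log2(intensity + 8), where 3 is an intensity of 0. Ligand rows such as Il2, Il4 and Il17a stay dark in every column, while Il18bp, Il1rn, Il1b and Il6 are brightest in the exposed C57BL/6 mice of day 32.

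Some arrays stood apart in ways that cut across the groups. On 16 of the 95 arrays the squamous epithelium score (the mean log2 level of keratin, small proline-rich and related genes) was 6.84 or higher, while it was 5.26 or lower on the others. Of these 16, 4 were among the 5 unexposed C57BL/6 mice of day 34 and 3 among the 10 exposed mice of that day. Another 2 were among the 3 unexposed CD40L-KO mice of day 32 and 1 among the 3 exposed. The others were spread over 4 C57BL/6 groups of days 7, 14 and 21 and the unexposed CD40L-KO mice labelled day 14. Skeletal muscle transcripts were also high on certain arrays of exposed and unexposed groups: the list's summed intensity reached 10251.1 in unexposed mice of day 14 and 7968.6 in exposed mice of day 7. Its group median was over 1000 in 2 groups, the unexposed C57BL/6 mice of day 34 (5824.2) and the unexposed CD40L-KO mice of day 32 (5306.3). The Y-linked Eif2s3y was above Xist, against the label female, on 17 arrays, which are all those of 5 groups (CD40L-KO of days 35, 39 and 75, C57BL/6 of day 75 and the unexposed CD40L-KO mice labelled day 14). The probe set for Cd40lg, the gene of CD40 ligand, was at 3.05 to 3.75 on the log2 scale on every array, near its floor of 3 in both strains, and could not check the genotype labels. Surfactant transcripts marked every group as lung, although Sftpd was under 20 throughout.

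In C57BL/6 mice exposed for 32 days the inhibitor of IL-18 rose. Il18bp encodes the IL-18 binding protein, a secreted decoy that captures IL-18. Its intensity was 99.98, 160.6 and 244.7 in the 3 exposed mice and 30.13 and 39.85 in the 2 unexposed mice. Every exposed mouse was far above both unexposed mice, and the groups did not overlap. The difference was 1.96 on the log2(intensity + 8) scale (SE 0.33, adjusted p = 0.0256 in limma, Benjamini-Hochberg over 12421 probe sets). It was 1 of 53 interleukin probe sets called in that comparison, where 1.22% of all tested probe sets were called. The call was lost without exposed replicate 1 or 3 or unexposed replicate 1 or 2 (adjusted p from 0.0768 to 0.225), with a pseudocount of 2 (0.0511) and with tissue scores as covariates (0.169). None of the 5 mice had a high squamous score. Leaving such CD40L-KO arrays out of the shared fit kept the value at 1.96, with adjusted p = 0.0581 at a score above 7 and 0.102 above 6. The value itself lay between 1.52 and 2.27 in all of the alternatives run.

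Other IL-1 family probe sets stood high in the same 3 mice without passing the test. Il1rn, the gene of the IL-1 receptor antagonist, was at 61.57, 208.4 and 217.9 in the exposed mice and at 24.6 and 40.35 in the unexposed mice (difference 1.92, SE 0.46, limma adjusted p = 0.079). Il1b, the gene of the inflammatory cytokine IL-1 beta, was at 207.6, 223.1 and 276.1 against 71.42 and 110.4 (difference 1.32, SE 0.43, adjusted p = 0.18). For both genes the exposed mice lay above the unexposed ones without overlap, and for Il1rn 1 of the 3 exposed mice was far closer to the unexposed mice than the others. Il18 itself, the ligand that the binding protein captures, did not share this direction. Its intensities were 21.71, 25.27 and 30.69 in exposed and 33.01 and 38.71 in unexposed mice, a difference of -0.38 (SE 0.30, adjusted p = 0.617) with the exposed mice the lower ones.

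Il6, the gene of a cytokine of the acute phase and of T cell and B cell help, was at 10.5, 23.28 and 65.02 in the exposed mice and at 0.54 and 2.132 in the unexposed mice of day 32. The difference was 1.90 (SE 0.47, limma adjusted p = 0.082). The group of 3 was the only one of the 19 whose mean Il6 intensity was above 20 (32.93). Il3ra, the IL-3 binding chain, was at 87.94, 111.6 and 112.7 against 43.82 and 50.29 (difference 1.02, SE 0.22, adjusted p = 0.0623). Il7r, a receptor chain of lymphocytes, was at 45.02, 54.51 and 122.8 against 28.14 and 31.58 (difference 1.00, SE 0.34, adjusted p = 0.195). These groups also did not overlap, and neither difference passed the threshold.

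Across the interleukin probe sets on day 32, 9 of 53 had an unadjusted p under 0.05, all 9 with the higher values in exposed mice. Over all tested probe sets this number was 1885 of 12421, 1007 of them higher. The median difference of the interleukin probe sets was 0.13, beside -0.0035 over all probe sets, and 6 of 53 differed by more than 1 in size, beside 4.27% of all. Groups did not overlap for 17 of 53, beside 32.3% of all tested probe sets. By direction, 14 of 53 lay wholly higher, beside 16.4% of all, and 3 wholly lower, beside 15.9%. Counted in either direction, the interleukin probe sets were called and separated about as often as the rest of the array.

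**Figure D2:**
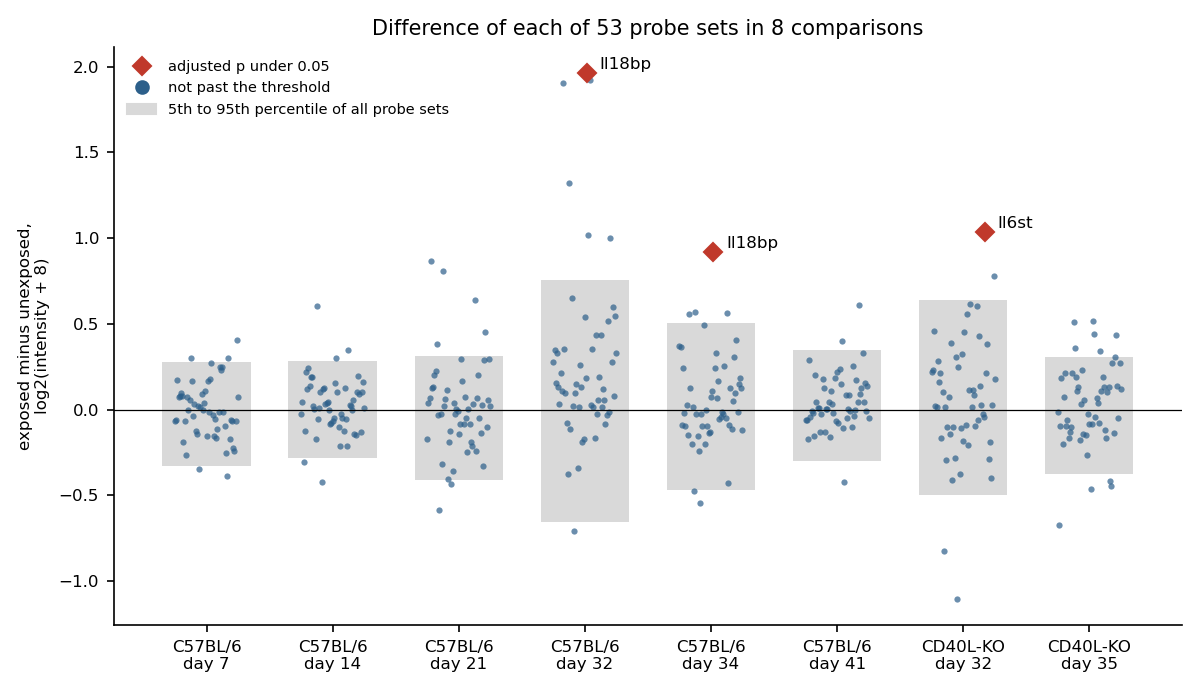
Difference between exposed and unexposed mice (vertical axis, log2(intensity + 8)) for each of the 53 tested interleukin and receptor probe sets in 8 comparisons; diamonds passed an adjusted p of 0.05, circles did not, and grey bars span the 5th to 95th percentile of all tested probe sets. Il18bp passed on days 32 and 34 in C57BL/6 mice and Il6st on day 32 in CD40L-KO mice.

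Macrophage and T cell markers moved with these values. In exposed C57BL/6 mice of day 32, 4 of 8 macrophage markers rose (Cd68, C1qa, C1qb and C1qc, genes of a lysosomal protein and of complement). Their list's summed intensity ranged from 2523.3 to 5533.1 with exposure and from 1308.5 to 1468.9 without. Of 6 measured T cell markers 1 rose, Cd3d, a chain of the T cell receptor complex, and the list's sum was 288.7 to 843.9 against 133.4 to 188.7. On day 34, 5 of 8 macrophage markers and 3 of 6 T cell markers rose, and 2 of 5 B cell markers, Cd79a and Blk, fell. In CD40L-KO mice of day 32 limma called 0 of the 8 macrophage markers (1 had an unadjusted p under 0.05) and 0 of the 6 T cell markers (0 at that level). There the macrophage sum ranged from 1233.2 to 1550.0 with exposure and from 1250.9 to 1337.5 without. The other marker lists (lung endothelium, lung epithelium, neutrophils, NK cells, mast cells and basophils, eosinophils, squamous epithelium and skeletal muscle; 49 measured genes) had 0 limma calls in 12 comparisons, and 74 of 588 tests at an unadjusted p under 0.05. The part of these cells in the interleukin differences was not tested. In homogenised lung, more cells of a type and more RNA per cell cannot be told apart.

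Among the days sampled in C57BL/6 mice, the Il18bp difference passed on days 32 and 34 and on no other day with an unexposed group. The days do not form a single course. Days 7, 14 and 21 shared an experiment, and days 32 and 34 each came from a different one. Between experiments an effect of the day cannot be told apart from one of the experiment. On day 7 the exposed mice ranged from 8.539 to 44.94 (median 33.1) and the 4 unexposed mice were at 24.7, 24.78, 25.24 and 45.49. Day 14 gave 26.82 to 53.96 (median 37.8) with exposure and 28.06 to 43.28 (median 33.8) without. On day 21 exposed mice ranged from 6.857 to 62.1 (median 41.6), with unexposed mice at 16.84, 27.05, 31.66, 32.45 and 35.95. The value of 6.857 was on the 1 exposed array of high squamous score, and 2 of the 5 unexposed arrays had such a score. In these 3 comparisons the groups overlapped and the Il18bp differences were -0.02, 0.15 and 0.29 (limma adjusted p from 0.739 to 0.995).

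Day 34 came from a separate experiment with more mice, and there Il18bp rose again. The 10 exposed mice ranged from 57.55 to 154.3 (median 101) and the 5 unexposed mice were at 40.2, 42.83, 43.34, 50.29 and 78.79. All 10 exposed mice were above the unexposed mean, although the brightest unexposed mouse was within the exposed range. The difference was 0.92 (SE 0.18, limma adjusted p = 0.00113), and Il18bp was the 1 interleukin probe set of 53 called, where 6.38% of all tested probe sets were called. It kept its call without any single mouse of that day (adjusted p from 0.000174 to 0.00655) but not without the arrays of high squamous score (1.01, adjusted p = 0.0678, at a score above 7; 0.88, adjusted p = 0.486, at a score above 6, which leaves 1 unexposed mouse). It was also kept with tissue scores as covariates (adjusted p = 0.00568). With those arrays left out and the unexposed mice of day 41 added to those of day 34, the difference was 0.95 (adjusted p = 0.00144) or 0.92 (adjusted p = 0.00439). The signal of the 3′ Gapdh control over that of the 5′ one rises as RNA is degraded. This ratio was 0.897 to 3.022 in the exposed and 1.21 to 4.42 in the unexposed mice of day 34. Beyond the alternatives run, the part of RNA quality in the Il18bp difference was not tested.

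By day 41 the 10 exposed mice had Il18bp between 37.16 and 89.83 (median 56.1), beside 40.03, 40.45, 48.22, 55.94 and 59.18 in unexposed mice, a difference of 0.23 (limma adjusted p = 0.916). Days 34 and 41 shared an experiment. The difference between the effects of days 41 and 34 was -0.68 (SE 0.25, limma adjusted p = 0.311). It did not pass, so a fall between these days was not shown. The 3 exposed mice of day 75 were at 27.54, 37.04 and 51.61.

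**Figure D3:**
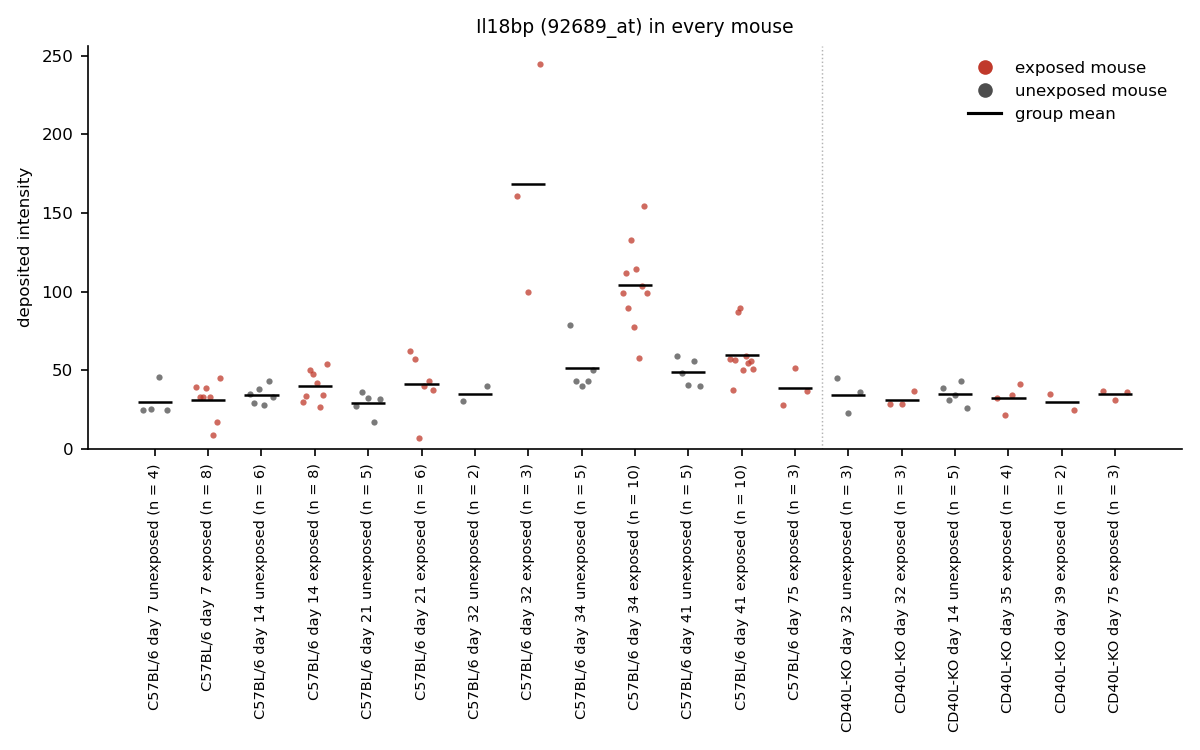
Deposited intensity of Il18bp (vertical axis) in every mouse of the 19 groups (horizontal axis; C57BL/6 left of the dotted line, CD40L-KO right); points are mice and bars group means. Exposed C57BL/6 mice of days 32 and 34 reach 244.7 and 154.3, while every CD40L-KO mouse is at 44.72 or lower.

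In CD40L-KO mice Il18bp was at 44.72 or lower with and without exposure. On day 32 the exposed mice were at 28.22, 28.34 and 37.03 and the unexposed mice at 22.5, 36.16 and 44.72, a difference of -0.09 (SE 0.30, limma adjusted p = 0.928). In the fourth experiment the exposed mice of day 35 were at 21.78, 32.44, 34.13 and 41.18 and the unexposed mice at 26.07, 31.25, 34.3, 38.33 and 42.91, again a difference of -0.09 (SE 0.21, adjusted p = 1.0). The groups overlapped fully on both occasions. Whether the strains differed was tested as the difference of the exposure effects. CD40L-KO minus C57BL/6 was -2.05 on day 32 (SE 0.45, limma adjusted p = 0.107) and -1.0 for day 35 against day 34 (SE 0.28, adjusted p = 0.122), and neither passed the threshold. In the second of these, strain went together with experiment, and the CD40L-KO controls carry the label day 14. All of its CD40L-KO arrays, and no array of day 34, had Eif2s3y above Xist. There an effect of strain cannot be told apart from these.

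Il1rn and Il6 showed the same ordering of strains on day 32, also short of the threshold. In CD40L-KO mice Il1rn was at 40.2, 44.62 and 48.7 in exposed and at 34.1, 60.89 and 68.51 in unexposed mice, and the strains' effects differed by -2.13 (SE 0.62, limma adjusted p = 0.191). Il6 was at 1.107, 1.129 and 8.108 against 3.718, 3.926 and 5.564, with a difference of effects of -2.07 (SE 0.62, adjusted p = 0.197). Il1b was at 56.71, 69.42 and 79.88 against 38.6, 61.29 and 160.9, with a difference of effects of -1.42 (SE 0.58, adjusted p = 0.33). Of these CD40L-KO arrays, 2 of the 3 unexposed, among them the one at 160.9, and 1 of the 3 exposed had a high squamous score. In that test of effects 0 of 53 interleukin probe sets passed in limma, where 0.153% of all tested probe sets were called, and 7 had an unadjusted p under 0.05, beside 1658 of all 12421. For the fourth experiment against day 34, 0 of 53 passed, where 0.411% of all were called, and 3 had an unadjusted p under 0.05, beside 1273 of all.

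**Figure D4:**
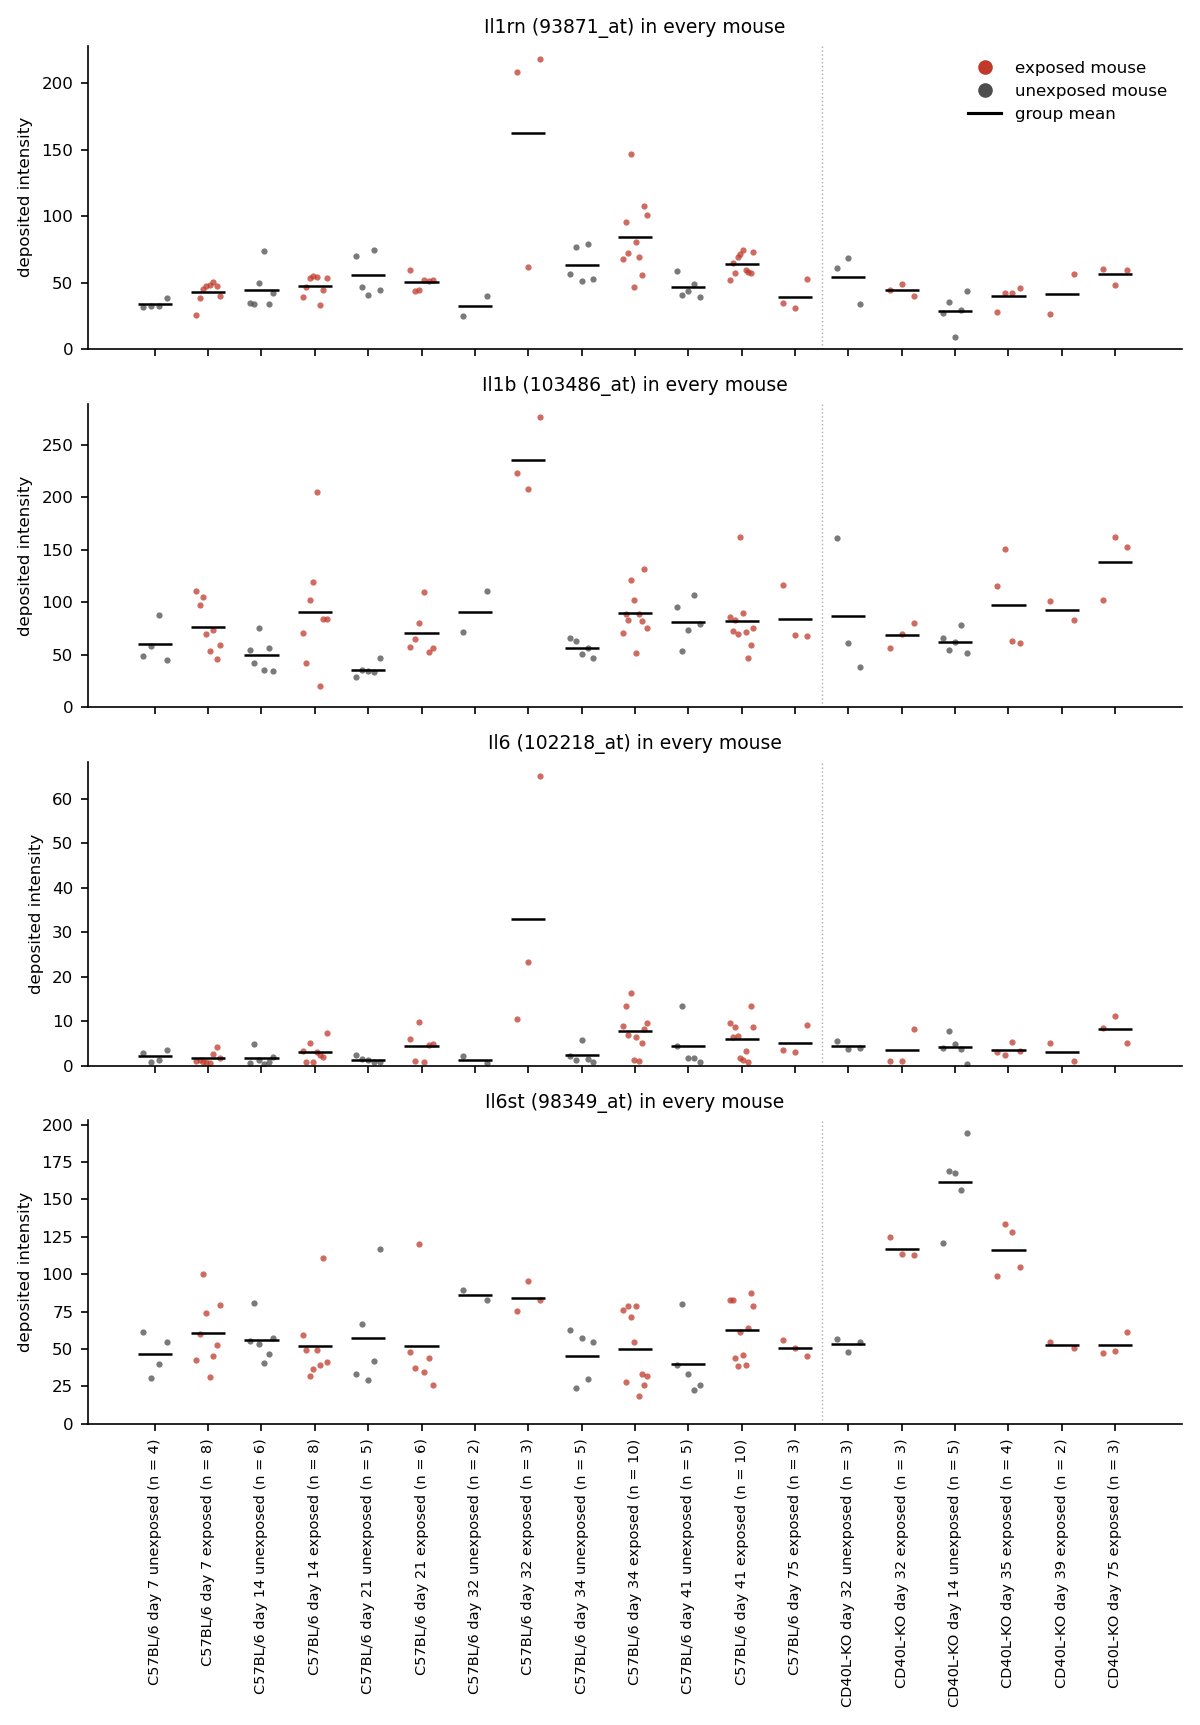
Deposited intensity (vertical axes) of Il1rn, Il1b, Il6 and the Il6st probe set 98349_at in every mouse of the 19 groups; points are mice, bars group means, and the dotted line parts C57BL/6 from CD40L-KO. Il1rn, Il1b and Il6 reach 217.9, 276.1 and 65.02 in exposed C57BL/6 mice of day 32, and the Il6st probe set is at 98.93 or higher in all CD40L-KO mice of the fourth experiment and in the exposed ones of day 32.

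The interleukin probe set that passed in CD40L-KO mice was one of Il6st, the gene of gp130, the signalling chain shared by receptors of the IL-6 family. Probe set 98349_at was at 113.1, 113.2 and 124.8 in the exposed and at 47.91, 54.74 and 56.76 in the unexposed CD40L-KO mice of day 32. The groups did not overlap, as for 9 of 53 interleukin probe sets there, all 9 higher in exposed mice (beside 20.6% of all tested probe sets, and 14.0% with the exposed mice higher). The difference was 1.03 (SE 0.13, limma adjusted p = 0.0199). It was 1 of 53 called, where 0.37% of all tested probe sets were called. The second Il6st probe set, 94345_at, was at 471.4, 484.0 and 507.1 against 410.0, 455.9 and 487.3, a difference of 0.11 (SE 0.17, adjusted p = 0.815), so the pair of probe sets for this gene disagreed.

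In the other comparisons 98349_at did not pass. The highest Il6st values by this probe set were among the unexposed CD40L-KO mice of the fourth experiment. Those 5 mice were at 120.8, 156.0, 167.9, 169.3 and 194.3, and the exposed mice there were at 98.93, 104.7, 128.1 and 133.6 (difference -0.44, SE 0.32, limma adjusted p = 1.0). In C57BL/6 mice of day 32 it was at 75.05, 82.9 and 95.24 in exposed and at 82.83 and 89.35 in unexposed mice, a difference of -0.03 (adjusted p = 0.953). On day 41 all 10 exposed C57BL/6 mice were above the unexposed mean, with overlapping ranges (difference 0.61, adjusted p = 0.643). Il6st in exposed CD40L-KO mice of days 39 and 75 was between 47.54 and 61.37. The difference of the strains' effects on day 32 was 1.07 (SE 0.20, adjusted p = 0.0789).

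Other measures of the arrays differed along with the Il6st call on day 32. B cell markers were higher in 5 of 5 genes (median difference 0.53, 4 at an unadjusted p under 0.05, 0 called in limma), with list sums of 849.2 to 1063.4 in the exposed mice and 562.8 to 777.9 in the unexposed. Skeletal muscle markers were lower in 10 of 10 (median -2.31, 7 at that level, 0 called), with sums of 285.5 to 894.4 and 342.1 to 8795.0. The signal of the 3′ Gapdh control over that of the 5′ one, a measure that rises as RNA is degraded, was between 0.918 and 1.001 in the exposed and between 1.162 and 1.37 in the unexposed CD40L-KO mice, and 2 of the 3 unexposed arrays but 1 of the 3 exposed had a high squamous score. With that ratio as a covariate the difference was 1.08 (adjusted p = 0.308), with the tissue scores 1.01 (0.252), and without high squamous scores 0.99 (0.234) or 1.02 (0.391). The call was also lost without exposed replicate 1, 2 or 3 or unexposed replicate 2 (adjusted p from 0.0546 to 0.0949). Beyond this, the part of RNA quality or tissue in the Il6st value was not tested.

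In CD40L-KO mice of day 32, 6 more interleukin probe sets were higher in exposed mice at an unadjusted p under 0.05 without passing: Il17ra, Il3, Il3ra, Il6ra, Il18rap and Il12a. Il17ra, the IL-17A receptor, has a pair of probe sets, and 99991_at was at 94.32, 103.9 and 116.3 against 47.88, 61.12 and 64.52 (difference 0.78, SE 0.15, limma adjusted p = 0.0537). In C57BL/6 mice of that day Il17ra by the same probe set was at 97.53, 106.0 and 111.3 against 64.06 and 74.65 (difference 0.55, adjusted p = 0.147). By the other Il17ra probe set, 99992_at, the differences were smaller. They were 0.18 (limma adjusted p = 0.525) in CD40L-KO and 0.33 (adjusted p = 0.265) in C57BL/6 mice. Il3, a growth factor for myeloid and mast cells, differed by 0.62 (adjusted p = 0.129) and Il3ra by 0.56 (adjusted p = 0.245). Il18rap, the accessory chain of the IL-18 receptor, differed by 0.60 (adjusted p = 0.272), Il12a, a subunit of IL-12, by 0.46 (adjusted p = 0.318) and Il6ra, the IL-6 binding chain, by 0.39 (adjusted p = 0.247). In all, 8 of 53 had an unadjusted p under 0.05, 7 higher and 1 lower, beside 1783 of all 12421 (1246 higher). The one lower was the Il1r2 probe set 161689_f_at (-1.10, adjusted p = 0.312).

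Day 34 had 7 further interleukin probe sets with an unadjusted p under 0.05 that missed the adjusted threshold, 8 of 53 in all, beside 2760 of all 12421. Il1b was at 51.25 to 131.9 (median 85.9) in exposed and at 46.59, 50.32, 56.29, 63.0 and 65.76 in unexposed mice (difference 0.57, SE 0.19, limma adjusted p = 0.0669), with 9 of 10 exposed mice above the unexposed mean. Il6 was at 0.942 to 16.3 (median 7.54) against 0.837, 1.303, 1.528, 2.148 and 5.742, a difference of 0.56 (SE 0.23, adjusted p = 0.143). These ranges overlapped for both genes. Il10ra, the ligand-binding chain for IL-10, differed by 0.56 (adjusted p = 0.0927), Il7r by 0.41 (adjusted p = 0.157) and the dim Il4ra probe set 161192_at by 0.49 (adjusted p = 0.155), while Il9 (-0.43, adjusted p = 0.171) and Il18 (-0.47, adjusted p = 0.192) were lower. High squamous scores were on 4 of the 5 unexposed and 3 of the 10 exposed arrays of that day. Il18 was higher on arrays with such a score in 8 of the 9 groups that hold both kinds. The part of squamous tissue in the Il18 difference was not tested.

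On day 41, 0 of 53 passed in limma, where 0.66% of all tested probe sets were called, and 2 had an unadjusted p under 0.05, beside 908 of all 12421. These were Il1rn, at 51.7 to 74.45 (median 62.1) against 39.04, 41.0, 43.99, 49.03 and 58.97 (difference 0.40, SE 0.16, adjusted p = 0.497), and Il6st by 98349_at (0.61, adjusted p = 0.643). All 10 exposed mice were above the unexposed mean for Il1rn, although the ranges met. Il1b on that day was level, at 47.31 to 162.0 (median 74.1) against 53.28, 73.17, 79.11, 95.24 and 106.7 (difference -0.02, adjusted p = 0.995). Between the effects of days 41 and 34, 0 of 53 differed in limma, where 0.0564% of all were called, and 3 had an unadjusted p under 0.05, beside 1289 of all.

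The early days held no interleukin call. On day 7, 0 of 53 passed in limma, 0.0% of all tested probe sets were called, and 0 had an unadjusted p under 0.05, beside 820 of all 12421. Day 14 had 0 of 53 beside 0.201% of all, and 4 with an unadjusted p under 0.05 (Il3ra, Il12a, Il18r1 and Il1b), beside 900 of all. Day 21 had 0 of 53 beside 0.0% of all, and 9 with an unadjusted p under 0.05, of which 6 were higher in exposed mice, in a comparison where 1308 of all 12421 reached that level.

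The widest day 21 differences were those of Il12b and Il1b. Il12b, the gene of the subunit shared by IL-12 and IL-23, was at 9.363 to 40.85 (median 19.5) in exposed mice and at 3.55, 6.24, 7.334, 8.358 and 12.46 in unexposed mice (difference 0.87, SE 0.30, limma adjusted p = 0.343). Il1b was at 53.11 to 109.7 (median 61.2) against 28.68, 33.7, 34.25, 35.25 and 47.18 (difference 0.81, SE 0.31, adjusted p = 0.386). For Il1b the groups did not overlap, the 1 case among 53 on that day, beside 0.66% of all tested probe sets. The highest exposed Il12b value, 40.85, and the lowest unexposed Il1b value, 28.68, were on arrays of high squamous score. The Il12b ranges overlapped slightly, and all 6 exposed mice were above the unexposed mean. In the same mice NK cell markers were higher in 4 of 4 genes (median difference 0.61, 4 at an unadjusted p under 0.05) and T cell markers in 5 of 6 (median 0.67, 4 at that level). Squamous markers were lower in 8 of 8 (median -0.93, 3 at that level), and limma called 0 genes of these lists. Their part in the day 21 values was not tested.

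In the fourth experiment exposed CD40L-KO mice of day 35 gave 0 of 53 calls in limma, beside 0.0% of all tested probe sets, and 5 with an unadjusted p under 0.05, beside 534 of all 12421. Il3ra was at 89.69, 97.31, 106.4 and 107.8 against 58.31, 60.77, 61.5, 78.73 and 81.76 (difference 0.52, SE 0.15, adjusted p = 0.71). Il2rb, the beta chain shared by the IL-2 and IL-15 receptors, was at 3.879, 7.448, 13.92 and 16.9 against 18.62, 20.15, 20.74, 21.03 and 21.03 (difference -0.67, SE 0.22, adjusted p = 0.71). Both separated the groups without overlap, as did Il1a (0.34, adjusted p = 1.0), 3 of 53 beside 3.58% of all. Every array of this comparison had Eif2s3y above Xist, so it cannot be given without such arrays.

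Between the exposed mice of day 75, 0 of 53 differed by strain in limma, where 0.66% of all tested probe sets were called, and 3 had an unadjusted p under 0.05, beside 542 of all 12421. Il12b was at 27.11, 28.48 and 32.77 in CD40L-KO and at 13.16, 17.69 and 19.34 in C57BL/6 mice (difference 0.60, SE 0.21, adjusted p = 0.667). Il4ra, the IL-4 receptor chain, was by 102021_at at 172.4, 184.1 and 235.5 against 136.7, 148.5 and 166.8 (difference 0.36, SE 0.16, adjusted p = 1.0). Groups did not overlap for 7 of 53, beside 12.1% of all. All 6 arrays had Eif2s3y above Xist here too.

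The signature ligands of type 2, IL-17 and IL-10 responses stayed at or under an intensity of 26.01 in every mouse. Il4 never exceeded 23.36 by any of its 5 probe sets. Over the 95 mice the Il4 medians were 0.982 (0.149 to 9.27) by 92283_s_at, 1.902 (0.573 to 12.17) by 92284_r_at and 2.109 (0.565 to 23.36) by 92285_at. They were 7.704 (0.741 to 20.73) by 92286_g_at and 5.839 (0.733 to 13.69) by the control probe set. Il5 had a median of 10.44 (1.776 to 26.01), Il13 of 4.765 (2.658 to 11.65) and Il17a of 5.434 (0.568 to 15.58). Il10 had a median of 2.921 (0.814 to 21.99) by the tested and of 7.094 (1.931 to 24) by the control probe set.

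On day 32, where Il1b, Il1rn and Il18bp had their highest group means, Il13 was at 5.779, 8.491 and 9.519 in exposed and 7.369 and 8.004 in unexposed C57BL/6 mice (difference 0.02, SE 0.18, limma adjusted p = 0.985). Il5 was at 12.84, 19.09 and 26.01 against 2.956 and 23.98 (difference 0.52, SE 0.39, adjusted p = 0.587). The 2 unexposed mice spanned almost the whole Il5 range. Il17a was at 4.598, 11.94 and 13.44 against 1.96 and 5.434 (difference 0.60, SE 0.28, adjusted p = 0.339). Il10 was at 3.653, 4.985 and 10.14 against 1.602 and 5.881 (difference 0.28, SE 0.45, adjusted p = 0.835). Levels this close to the floor give no basis for saying that a transcript was absent, since a dim probe set may also be a poor probe.

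In the other CD40L-KO and C57BL/6 comparisons these ligands were as dim. In CD40L-KO mice of day 32 Il13 was at 5.059, 5.383 and 10.01 in exposed and 5.484, 6.996 and 7.135 in unexposed mice, and Il17a at 1.423, 3.107 and 4.475 against 3.569, 5.869 and 10.61. The lowest unadjusted p among them was that of Il13 on day 21, which was lower in exposed mice by 0.25 (-0.25, SE 0.09, adjusted p = 0.378) within a range of 2.984 to 8.446. Of 5 listed eosinophil markers 3 were measured (Prg2, Epx and Ccr3), and all 3 were under 20 in every group. Mast cell and basophil markers had 6 of 8 genes under 20 in every group. Such dim markers give no basis for saying that these cells were absent.

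Il18 and Il12b, genes of a ligand and of a ligand subunit that act upstream of interferon-gamma, passed no test. Intensity was at 20 or more on 91 of the 95 arrays for Il18 but on 35 for Il12b. Over the 95 mice Il18 lay between 9.996 and 74.36 and Il12b between 2.307 and 48.65. Ifng, the interferon-gamma gene, was at 4.359, 17.05 and 22.46 in the exposed and 1.155 and 2.081 in the unexposed C57BL/6 mice of day 32 (difference 1.14, SE 0.34, limma adjusted p = 0.145). On day 34 the Ifng difference was 0.28 (adjusted p = 0.385).

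Among 25 measured genes of interleukin signalling (JAK, STAT, SOCS, MyD88 and NF-kB genes and T helper cell factors, of 33 listed), 2 rose on day 32 in C57BL/6 mice and 3 on day 34. Socs1, a feedback inhibitor of JAK kinases, was at 134.8, 293.0 and 419.8 in exposed and at 37.88 and 38.74 in unexposed mice of day 32 (difference 2.51, SE 0.39, limma adjusted p = 0.0193). On day 34 Socs1 was at 58.17 to 211.3 (median 92.6) against 12.77 to 69.37 (difference 1.36, SE 0.25, adjusted p = 0.000497). Ptpn6, a phosphatase that restrains cytokine receptors, rose on day 32 by 1.19 (adjusted p = 0.0445), and the NF-kB genes Nfkbia (0.49, adjusted p = 0.0185) and Nfkb2 (0.58, adjusted p = 0.000243) rose on day 34.

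The median difference of the signalling list was 0.18 on day 32 and 0.11 on day 34, beside -0.0035 and -0.03 over all probe sets. In CD40L-KO mice 0 of these 25 passed in limma on day 32 (2 had an unadjusted p under 0.05) and 0 on day 35 (5 at that level). Socs1 differed by 0.08 in those of day 32 (limma adjusted p = 0.949). The strains' effects on Socs1 differed by -2.43 (SE 0.52, adjusted p = 0.102), short of the threshold. Of 6 measured partner chains named outside the interleukin series, Csf2rb2, a beta chain of the IL-3 receptor in mice, rose on day 34 (0.70, adjusted p = 0.0022) and was higher in CD40L-KO than in C57BL/6 mice on day 75 (0.76, adjusted p = 0.0422). Casp1, the protease that matures IL-1 beta and IL-18 and the 1 inflammasome gene measured of 4 listed, differed by 1.13 on day 32 (SE 0.27, adjusted p = 0.077).

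The squamous transcripts described above ran together with certain interleukin probe sets. Il1f5, which encodes the antagonist of the IL-36 receptor, had a median of 23.9 (12.13 to 57.61) on the 16 arrays of high squamous score and of 7.36 (1.486 to 20.06) on the other 79. Il1r2, the IL-1 decoy receptor, had a median of 54.9 (27.91 to 91.07) against 23.4 (11.1 to 45.04) by 102658_at and of 50.4 (26 to 103.6) against 20.8 (10.54 to 58.26) by 161689_f_at. For Il1f5 and both Il1r2 probe sets the high-score arrays were higher in 9 of the 9 groups that hold both kinds, and for Il18 and Il12b in 8 of 9. The Il18 median was 51.24 against 32.96 on the other 79. For Il12b the difference was small, with a median of 17.01 against 17.06 on the other 79 and 14.28 on the 35 of them in those 9 groups. At the low end of the group counts were Il6st by 94345_at and Il4ra by 161192_at, higher in 0 of 9, and most of the 55 probe sets lay between 2 and 7 of 9. These arrays were set apart by transcripts other than interleukins, and no test was made between them.

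**Figure D5:**
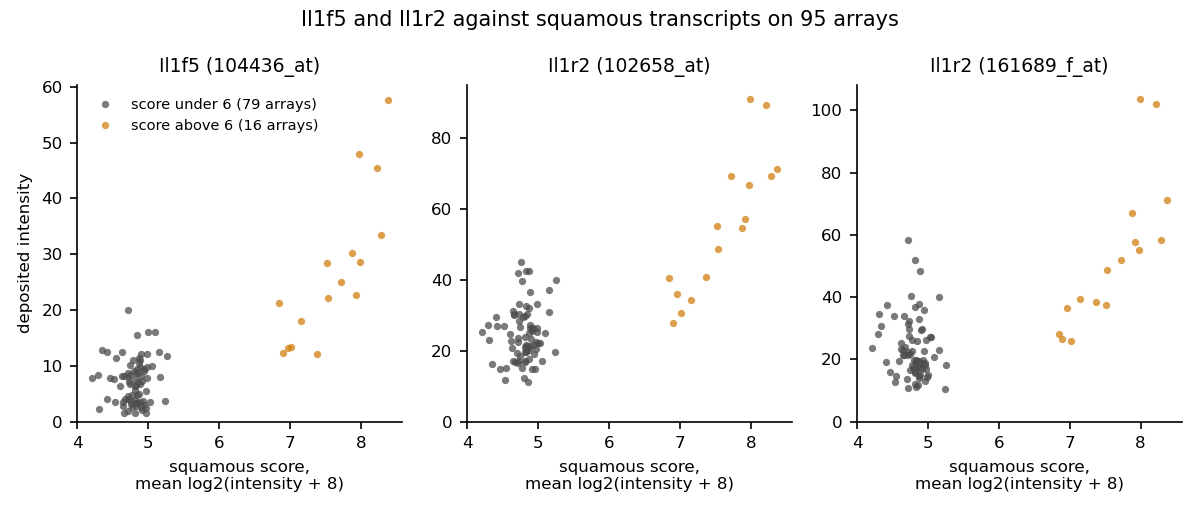
Deposited intensity of Il1f5 and of both Il1r2 probe sets (vertical axes) against the squamous epithelium score of the array (horizontal axes, mean log2(intensity + 8) of the marker list) on 95 arrays. The 16 arrays with a score of 6.84 or higher reach 57.61 for Il1f5 and 91.07 and 103.6 for Il1r2, above most of the other 79.

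The Il1r2 values of CD40L-KO mice on day 32 lay along that split. By 161689_f_at the unexposed mice were at 18.68, 67.1 and 101.9 and the exposed mice at 14.92, 18.74 and 28.3. The 2 high unexposed values were on the arrays of high squamous score. The part of squamous tissue in the Il1r2 difference was not tested beyond this.

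The 9 CD40L-KO mice of the fourth experiment were also set against the 11 other CD40L-KO mice, exposed and unexposed together. Il1r1, the signalling IL-1 receptor, was at 81.91 to 114.0 (median 92.4) against 33.8 to 80.03 (median 57.3), and Il12b at 2.307 to 12.7 (median 3.83) against 12.86 to 32.77 (median 20.6). These 2 of 53 probe sets did not overlap (3.77%), beside 10.7% of all tested probe sets. Il9 had a median of 4.75 in the fourth experiment, 25.6 in the other CD40L-KO mice and 24.4 in the 75 C57BL/6 mice. The 102021_at probe set of Il4ra had medians of 277, 190 and 161 in the same order. For Il9 and for this Il4ra probe set the ranges of the fourth experiment and of the other CD40L-KO mice overlapped. The 11 others include the 5 mice of days 39 and 75, whose arrays also had Eif2s3y above Xist. Values of these 5 (Il1r1 33.8 to 80.03, Il12b 20.58 to 32.77) had to lie outside the range of the fourth experiment. The 2 probe sets were picked because none of the 11 overlapped it, so this is no separate evidence. Whatever else differed between the experiments cannot be told apart in this split.

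The probe sets of a gene did not always give the same picture. For Il4ra, 102021_at for Il4ra was at 103.8 to 341.8 and 161192_at at 0.591 to 29.86, and in the fourth experiment the former was high while the latter was at most 9.858. Values of different probe sets are not comparable as levels.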

How the data were processed

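Lung RNA of 95 mice was measured on a mouse oligonucleotide array. The values used are the intensity values that the authors deposited in the series' value table. The method that turned probe signals into these values is one not given in the sources used here. The deposited intensities were already scaled: the mean without the lowest and highest 2% of values was 100.05 to 100.07 on every array, and 1 value was missing. No further normalization was applied. Intensities were taken as log2(intensity + 8), and a difference on this scale understates the change of dim probe sets.

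Groups come from the sample titles, and replicates are separate labelled mice. Each comparison was fitted with limma 3.58.1 (R 4.3.3) on 12421 probe sets that are not controls, with Benjamini-Hochberg adjustment and a threshold of 0.05. Groups of 1 experiment shared the estimate of the spread. The fit for CD40L-KO day 35 also held the 2 groups of day 34, and that for day 75 held the 7 groups of days 32, 39 and 75. No 2 arrays held identical values. Array brightness limits the precision, and groups of 2 or 3 leave wide errors.

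Any probe set of the interleukin symbols could be named. Values of every mouse, or the range and median, were set to be given for those called and for Il4, Il5, Il13, Il17a, Il6, Il10, Il1b, Il12b and Il18; other genes given in that detail were chosen after their values were seen. The interleukin probe sets, marker lists and signalling list were chosen with earlier results of these data known. Alternatives changed the pseudocount, normalization, filter, covariates, block, samples and fit. The fits were tested on simulated data. Tables were handled in pandas 2.3.3 and numpy 2.4.6, and figures drawn in matplotlib 3.10.9, under Python 3.11.15.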

Additional observations from a re-analysis of the deposited data

Results flagged for a closer look

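Single mice apart from their group were looked for in 72 sets of 4 to 10 mice (6 interleukin probe sets by group), with Dixon's 95% critical value for the gap to the nearest mouse. Chance alone marks about 1 in 20 such sets, and 5 were marked. Il12b in 1 exposed C57BL/6 mouse of day 7 was at 3.54 on the log2(intensity + 8) scale (intensity 3.629, the next mouse at 14.01). Il18bp in 1 exposed C57BL/6 mouse of day 21, the 1 of its group with a high squamous score, was at 3.89 (intensity 6.857, the next at 37.13). Il18bp in 1 unexposed C57BL/6 mouse of day 7 was at 5.74 (intensity 45.49, the next at 25.24). Il18 in 1 unexposed CD40L-KO mouse labelled day 14 was at 6.16 (intensity 63.67, the next at 55.44). Il1b in 1 exposed C57BL/6 mouse of day 41 was at 7.41 (intensity 162.0, the next at 89.78).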

How the results depend on the processing

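The number of interleukin probe sets called was recomputed under 138 settings that kept every mouse or left out arrays by tissue score: it stayed within 1.5 times in 111 and moved in 27. For C57BL/6 day 32 the count of 1 became 0 with a pseudocount of 2, tissue scores, the replicate block or without squamous scores above 7 or above 6 (CD40L-KO arrays of the shared fit), 2 with a pseudocount of 32 (Il3ra added), 3 among probe sets brighter than the median (Il3ra and Il1rn added) and 6 in 1 fit of all arrays (Il1rn, Il6, Il1b, Il3ra and Il7r added). For CD40L-KO day 32 the count of 1 became 0 with tissue scores, the Gapdh ratio, the replicate block, without squamous scores above 7 or above 6, with 1 probe set per gene and in 1 fit of all arrays, and 2 with a pseudocount of 32 and among brighter probe sets (Il17ra added). The difference of strains on day 32 went from 0 to 1 with a pseudocount of 32, 2 among brighter probe sets and 4 in 1 fit of all arrays. Day 34 went from 1 to 0 without squamous scores above 7 or above 6, 2 among brighter probe sets (Il1b added), and 2 or 3 with pooled unexposed mice. Day 35 against day 34 went from 0 to 1 in 1 fit of all arrays (Il2rb). Leaving out 1 mouse at a time gave 0 to 3 calls for C57BL/6 day 32 (3 without exposed replicate 2), 0 to 2 for CD40L-KO day 32, 0 to 3 for the strain difference on day 32, 1 to 4 for day 34 (4 without unexposed replicate 5), 0 to 1 for day 35 against day 34 (1 without exposed replicate 7 or unexposed replicate 1 of day 34) and 0 to 0 for the other 7 comparisons. Near the floor were 15 probe sets in place of 24 with a limit of 10. None of 60 alternative values of Il18bp and Il6st changed direction, and 21 missed the threshold. Except where a setting tests fewer probe sets or mice, the cause was not tested. Deviations of same-numbered mice from their group means correlated at -0.405 to 0.459. Values of both signs in groups this small cannot show whether the numbers pair the mice. The replicate block gave Il18bp 1.81 (limma adjusted p = 0.0569) on day 32 and 0.96 (0.00407) on day 34, and Il6st 1.03 (0.0789). The squamous limit of 6 was chosen after seeing the data.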
